A study of Caenorhabditis elegans with 2 samples.

Results

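The 69 nuclear protein-coding genes described here encode the factors that start and extend protein synthesis and the enzymes that charge tRNAs with amino acids. They were chosen by symbol alone among 19973 nuclear protein-coding genes: every gene whose symbol begins with eif-, eef-, ife- or ifg-, or is a letter followed by ars- and a number. By symbol they comprise 31 initiation factor genes (with eif-4A3, whose product is better known from the exon junction complex), 6 elongation factor genes and 32 aminoacyl-tRNA synthetase genes. FOS-1, the worm relative of the mammalian Fos transcription factors, was mapped with an eGFP tag in whole Caenorhabditis elegans L4 larvae by chromatin immunoprecipitation and sequencing (ChIP-seq), and ranked lists of enriched regions are the data. Both samples are biological replicates of a single group: strain OP304, which carries the mutation unc-119(ed3) on chromosome III and the inserted tagged fos-1 gene wgIs304, with males and females pooled. No strain, stage or condition was set against another, so the results are positions in ranked lists of regions, read against all other protein-coding genes. Whole animals mix every tissue, the tagged protein came from an added insertion, and lists of regions hold no measure of how strongly these genes were transcribed.

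In translation initiation, eIF2 brings the initiator tRNA to the small ribosomal subunit, eIF2B recharges eIF2 with GTP, and eIF3 is a large scaffold on that subunit. eIF4E binds the mRNA cap and eIF4G links it to the ribosome. During elongation, eEF1A delivers charged tRNAs, the eEF1B subunits recharge eEF1A, and eEF2 moves the ribosome along the mRNA. Aminoacyl-tRNA synthetases join each amino acid to its tRNA, in the cytosol and in mitochondria. Fos proteins act as dimers with other basic leucine zipper proteins and are known for binding the AP-1 site.

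The promoter of a gene was the stretch from 1000 bp before an annotated 5' end to 200 bp past it, and each gene was given the best-ranked summit (the highest point of a region) that fell there. Rank 1 is the region of highest signal in a list. The authors' set that passed their irreproducible discovery rate (IDR) threshold holds 248 regions, their pooled list 3527, and the lists of replicate 1 and replicate 2 hold 30000 and 29345. The pooled and replicate lists include background: the median −log10 q is 0.131 in the pooled list, 0.0965 in replicate 1 and 0.0946 in replicate 2. Of the replicate 2 regions, 18 lie on mitochondrial DNA, and the best of them holds rank 1. Signal values were assigned by the authors' peak caller, on a scale that was not stated, and are read within a list only. The number of reads behind it is unknown.

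Among the summits at these genes, 3 are shown as sequence: the only member in the IDR set, the member that comes next in the pooled list, and a synthetase whose summit lies in a short shared promoter. Each run is from ce11 (RefSeq assembly WBcel235), on the strand of the gene and cut at the nearest annotated exon, and the capitals mark the 11 bases centred on the pooled summit.
eef-1G, V:10965592-10965718, plus strand: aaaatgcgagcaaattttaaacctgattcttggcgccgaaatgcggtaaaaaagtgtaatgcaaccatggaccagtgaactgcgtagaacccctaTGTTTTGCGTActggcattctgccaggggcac
eef-1A.2, X:7823183-7823383, plus strand: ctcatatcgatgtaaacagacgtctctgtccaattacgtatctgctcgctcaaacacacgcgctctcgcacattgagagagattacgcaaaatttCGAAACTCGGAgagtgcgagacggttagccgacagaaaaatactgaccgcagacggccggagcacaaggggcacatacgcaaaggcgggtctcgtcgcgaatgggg
ears-2, IV:390469-390559, minus strand: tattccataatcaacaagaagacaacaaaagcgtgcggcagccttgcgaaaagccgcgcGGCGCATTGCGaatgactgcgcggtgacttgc
None of these runs contains TGACTCA or TGAGTCA, the letters of the AP-1 site.

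In the IDR set and the pooled list, translation factor and synthetase genes had promoter summits about as often as protein-coding genes at large. In the IDR set 1 of 69 had a promoter summit, eef-1G, or 1.45% (exact Clopper-Pearson 95% interval 0.0367 to 7.81), beside 0.806% of all protein-coding genes. In the pooled list 6 of 69 did, 8.70% (95% interval 3.26 to 18.0), beside 7.67% of all. These were eef-1G, eef-1A.2, eif-3.C, eif-3.J, kars-1 and ears-2. Both shares are near the background and are no result about these genes. The intervals cover counting error only, and no test was made, since the genes form a list and both samples a single group. The median best rank of the 6 genes was 1335.5, against 1511 over the 1531 protein-coding genes with a pooled promoter summit.

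**Figure D1:**
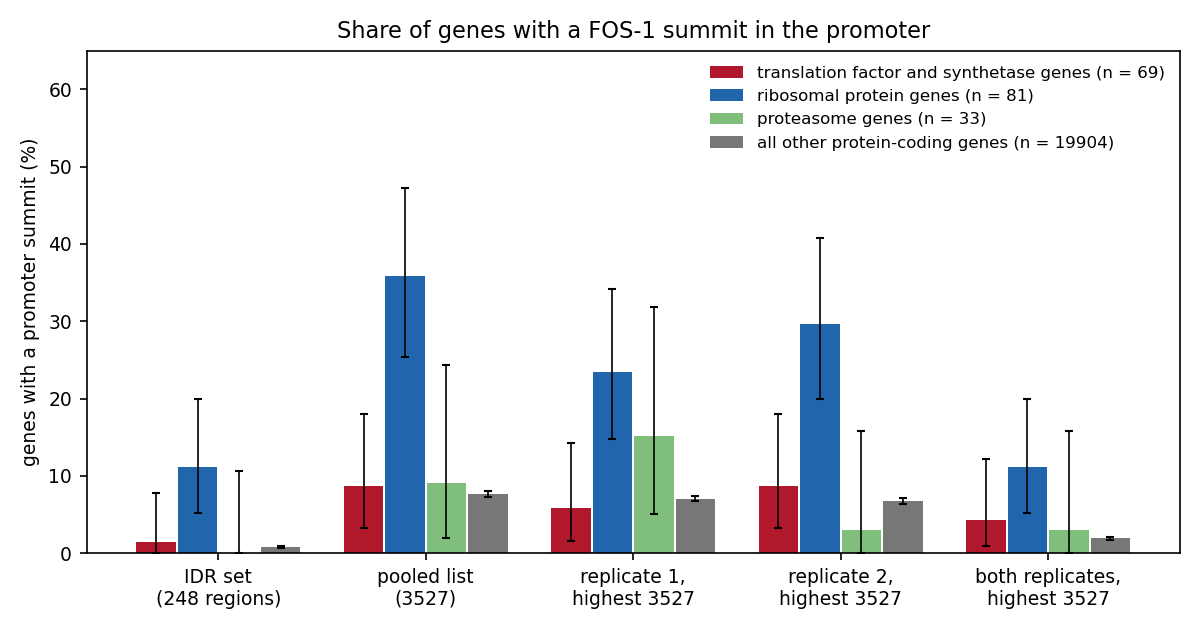
Percentage of genes with a promoter summit (vertical axis) in 5 sets of regions, for translation factor and synthetase genes, ribosomal protein genes, proteasome genes and all protein-coding genes outside the 69, with exact 95% intervals as bars. The red columns lie between 1.45% and 8.70% and their intervals all include the grey columns, which lie between 0.804% and 7.66%.

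The replicates gave the same picture when each list was read to the length of the pooled list. Among its highest 3527 regions, replicate 1 had a promoter summit at 4 of 69 genes, 5.80% beside 7.04% of all protein-coding genes. These were eef-1G, eif-3.C, eef-1B.2 and eef-1A.2. Replicate 2 had 6 of 69, 8.70% beside 6.75%, and these were eif-3.C, eef-1A.2, eef-1G, eif-3.J, nars-1 and kars-1. Both replicates placed a summit of that rank at eef-1G, eef-1A.2 and eif-3.C, which is 3 of 69 or 4.35% (95% interval 0.906 to 12.2), beside 1.91% of all. Higher up the lists the counts were smaller. Among the highest 1000 regions, 3 genes (4.35%) had a promoter summit in the pooled list beside 2.77% of all, 1 (1.45%) in replicate 1 beside 2.4% and 3 (4.35%) in replicate 2 beside 2.22%. Among the highest 248, eef-1G had a summit in replicate 1, where 0.656% of all genes had one, and 0 of 69 did in replicate 2 beside 0.646%, a count that allows a share of up to 5.21%.

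Cytosolic ribosomal protein genes, whose products work in the same process, had the larger share in each of these lists. In the IDR set 1.45% of the translation factor and synthetase genes had a promoter summit, against 11.1% of 81 ribosomal protein genes, with 95% intervals that overlap, since the upper bound for the translation factor and synthetase genes was 7.81% and the lower bound for the ribosomal protein genes 5.21%. In the pooled list the shares were 8.70% against 35.8%, with 95% intervals of 3.26 to 18.0 and 25.4 to 47.2 that do not. The difference between the lists was not tested. Proteasome genes, another set of genes for an abundant complex, had 3 of 33 members with a pooled promoter summit (9.09%) and 0 of 33 in the IDR set, which allows a share of up to 10.6% (exact 95% interval). By distance to the nearest pooled summit, the median was 6708 bp for the translation factor and synthetase genes, 2457 bp for the ribosomal protein genes, 10623 bp for the proteasome genes and 11493 bp for all protein-coding genes. The 69 genes had a median of 2 annotated 5' ends and a mean promoter window of 1551 bp, against 1 and 1459 bp for the other protein-coding genes. The part of that extra length in the counts was not tested beyond the use of a single 5' end per gene. That also gave 1 gene in the IDR set and 6 in the pooled list, beside lower shares of all genes, 0.741% and 6.7%.

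In the pooled list, elongation factor genes held the best 2 ranks among the 69. The eef-1G gene encodes the gamma subunit of eEF1B, part of the complex that recharges eEF1A. Its region, V:10965520-10965863, ranked 149 in the pooled list and in the IDR set, with a signal of 36.0 and a −log10 q of 2.00. The summit was intergenic, 27 bp upstream of the 5' end of eef-1G and 153 bp upstream of that of ctf-4, which runs the other way, so the region belongs to a shared promoter. The corresponding region ranked 204 in replicate 1 (signal 18.7, −log10 q 2.13) and 916 in replicate 2 (signal 14.2, −log10 q 0.926). Its summits lay 42 bp and 8 bp from the pooled summit, on the side of eef-1G. Replicate 1 thus held it among its highest 248 regions and replicate 2 did not, where the region at rank 248 had a signal of 18.7.

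The eef-1A.2 gene, which encodes eEF1A, had the next best pooled rank. Its region, X:7823111-7823454, ranked 319 with a signal of 29.1 and a −log10 q of 1.19, below the signal of 31.1 at which the IDR set ends. The intergenic summit lay 371 bp upstream of the 5' end. A noncoding RNA gene, R03G5.8, lies within 1000 bp of this summit, and which gene the region belongs to was not tested. The matching regions ranked 3348 in replicate 1 (signal 10.2) and 747 in replicate 2 (signal 14.8), with summits 2 bp and 15 bp from the pooled summit. The replicates therefore ordered eef-1G and eef-1A.2 differently: eef-1G was far ahead in replicate 1, and eef-1A.2 slightly ahead in replicate 2. A further pooled region had its summit just past the downstream edge of the promoter window, at X 7823863 in a coding exon of eef-1A.2. This region ranked 843 (signal 22.8). Of its 315 words of 30 bases, 39 (12.4%) also occur elsewhere in the genome, and 0 of 295 words of 50 bases do, while the promoter regions of eef-1G and eef-1A.2 have 0 at either length. The length of the reads is not known here, so how far reads of this exon could be shared with another gene was not tested. The other eEF1A gene, eef-1A.1, had no pooled or replicate 1 promoter summit, and its best in replicate 2 ranked 3881 (signal 10.4), 416 bp upstream.

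The remaining elongation factor genes had promoter summits in a single replicate list. The eef-1B.2 gene, for an eEF1B subunit of the beta/delta type, had a replicate 1 summit at rank 2699 (signal 10.7) in a coding exon, 63 bp downstream of the 5' end, and none in replicate 2. The paralogous eef-1B.1 ranked 15710 in replicate 1, and eef-2, which encodes eEF2, ranked 6776 there. As a group, 2 of 6 elongation factor genes had a pooled promoter summit (33.3%, 95% interval 4.33 to 77.7). That interval is wide and includes the 7.67% of all genes. With 2 of 6 it lay above all genes in the highest 1000 pooled (2.77%) and replicate 2 regions (2.22%). The same held for the highest 3527 of both replicates (1.91%), and of replicate 1 with 3 of 6 (11.8 to 88.2 beside 7.04%). At the other cutoffs it included the share of all genes. These counts share eef-1G and eef-1A.2, and none was tested.

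**Figure D2:**
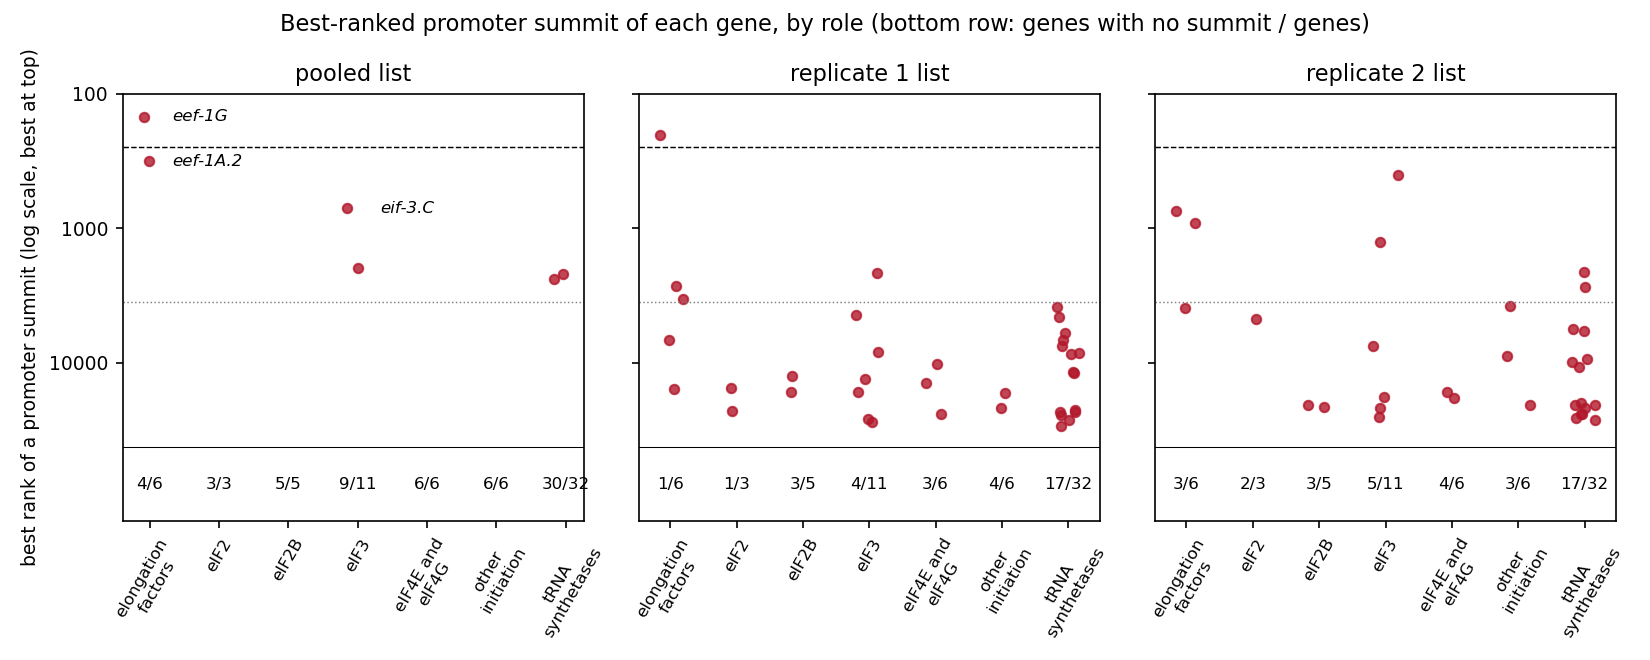
Best rank of a promoter summit for each gene (log axis, best at the top) by role, in each of 3 lists. The dashed line is rank 248, the size of the IDR set, the dotted line is rank 3527, the length of the pooled list, and the row of fractions gives genes without a promoter summit of all genes in the role. The points for eef-1G (rank 149) and eef-1A.2 (rank 319) are the highest in the pooled list, and no eIF2, eIF2B, eIF4E or eIF4G gene has a point there.

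Among initiation factors, pooled promoter summits were found at 2 of the 11 eIF3 subunit genes, 18.2% with a 95% interval of 2.28 to 51.8, which includes the 7.67% of all genes. The region upstream of eif-3.C, which encodes a core eIF3 subunit, lies at I:9979811-9980154 and ranked 710 (signal 23.7, −log10 q 0.506). It ranked 2152 in replicate 1 (signal 11.3) and 404 in replicate 2 (signal 16.7), the best rank of any of the 69 genes in replicate 2. Its summit was intergenic, 321 bp upstream of the 5' end. The region assigned to eif-3.J, I:13434369-13434712, ranked 1961 (signal 18.9), and its summit lay 948 bp upstream, inside the 3' UTR of another gene and close to the edge of the promoter window. Replicate 2 had it at rank 1256 and replicate 1 at 8262. The remaining 9 eIF3 genes had no pooled promoter summit. Of them, eif-3.B came highest in a replicate list, at rank 4401 in replicate 1 (signal 9.51), with none in replicate 2.

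The genes for eIF2 (3 subunits), eIF2B (5 subunits) and eIF4E with eIF4G (6 genes) had no promoter summit in the pooled list or the IDR set. For groups this small a count of 0 allows shares of up to 70.8%, 52.2% and 45.9% (exact 95% intervals), so a moderate share was not detectable. Among them, eif-2alpha, whose product is the subunit phosphorylated when initiation is slowed under stress, ranked 15350 in replicate 1 and 4701 in replicate 2 (signal 9.97). The scaffold gene ifg-1 ranked 10215 in replicate 1 and had no replicate 2 summit. The best of the eIF4E genes, ife-1, ranked 14166 in replicate 1 and had none in replicate 2, while ife-2 and ife-5 had no promoter summit in any list. The best of the eIF2B genes, eif-2Bgamma, ranked 12593 in replicate 1 and 21290 in replicate 2. Of the other 6 initiation genes, eif-2A had the best rank, 3763 in replicate 2 (signal 10.5, 666 bp upstream), and none in replicate 1.

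The 32 synthetase genes had no IDR summit, which allows a share of up to 10.9%, and 2 pooled promoter summits, a share of 6.25% beside 7.67% of all genes. Both were weak. The kars-1 gene, for lysyl-tRNA synthetase, had a region at II:7072463-7072806 with rank 2181 (signal 18.4, −log10 q 0.0800), 220 bp upstream. No replicate 1 summit lay within 200 bp of it, and the replicate 2 summit at the same base ranked 21412 (signal 5.99). The best replicate 2 summit in the kars-1 promoter was another one, at rank 2731 and 6 bp downstream of the 5' end. The ears-2 gene, annotated by RefSeq as a mitochondrial glutamyl-tRNA synthetase, had a region at IV:390323-390666 with rank 2384 (signal 18.0, −log10 q 0.0632). Its summit was 27 bp upstream of ears-2 and 65 bp upstream of uncp-18, in the 91 bp between the 5' ends shown as sequence. It ranked 8476 in replicate 1 and 19755 in replicate 2. Outside the pooled list, nars-1, for asparaginyl-tRNA synthetase, ranked 2125 in replicate 2 (signal 12.0), and cars-1, for cysteinyl-tRNA synthetase, ranked 3865 in replicate 1 (signal 9.81). Neither had a promoter summit in the other replicate.

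The long replicate lists include background and reach many promoters. In the whole replicate 1 list 36 of 69 genes had a promoter summit (52.2%, 95% interval 39.8 to 64.4, beside 39.7% of all genes), and in the whole replicate 2 list 32 of 69 (46.4%, 95% interval 34.3 to 58.8, beside 39.8%). Their median best ranks were 12916.5 in replicate 1 and 13668.5 in replicate 2, against 12183.5 and 12120 over all protein-coding genes with a summit in these lists, so the summits at these genes ranked no better than those elsewhere. In both lists 23 genes had a promoter summit (33.3%, 95% interval 22.4 to 45.7, beside 21.0%), and 24 genes had none in either (34.8%, 95% interval 23.7 to 47.2, beside 41.6%). The summits of a gene in both lists need not lie at the same place. For eif-3.F the best lay 980 bp upstream in replicate 1 and 169 bp downstream in replicate 2. The intervals for the whole replicate 1 list and for both lists thus lie above the share of all genes, by a small margin and unlike those for the shorter lists, while that for replicate 2 includes it. The 69 genes had the longer mean promoter window, 1551 bp against 1459 bp for the other protein-coding genes. Its part in these shares was not tested, and a single 5' end per gene was not tried on the whole lists. The genes with none included lars-1, gars-1, tars-1, aars-2, eif-1, eif-1.A and eif-3.H.

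**Figure D3:**
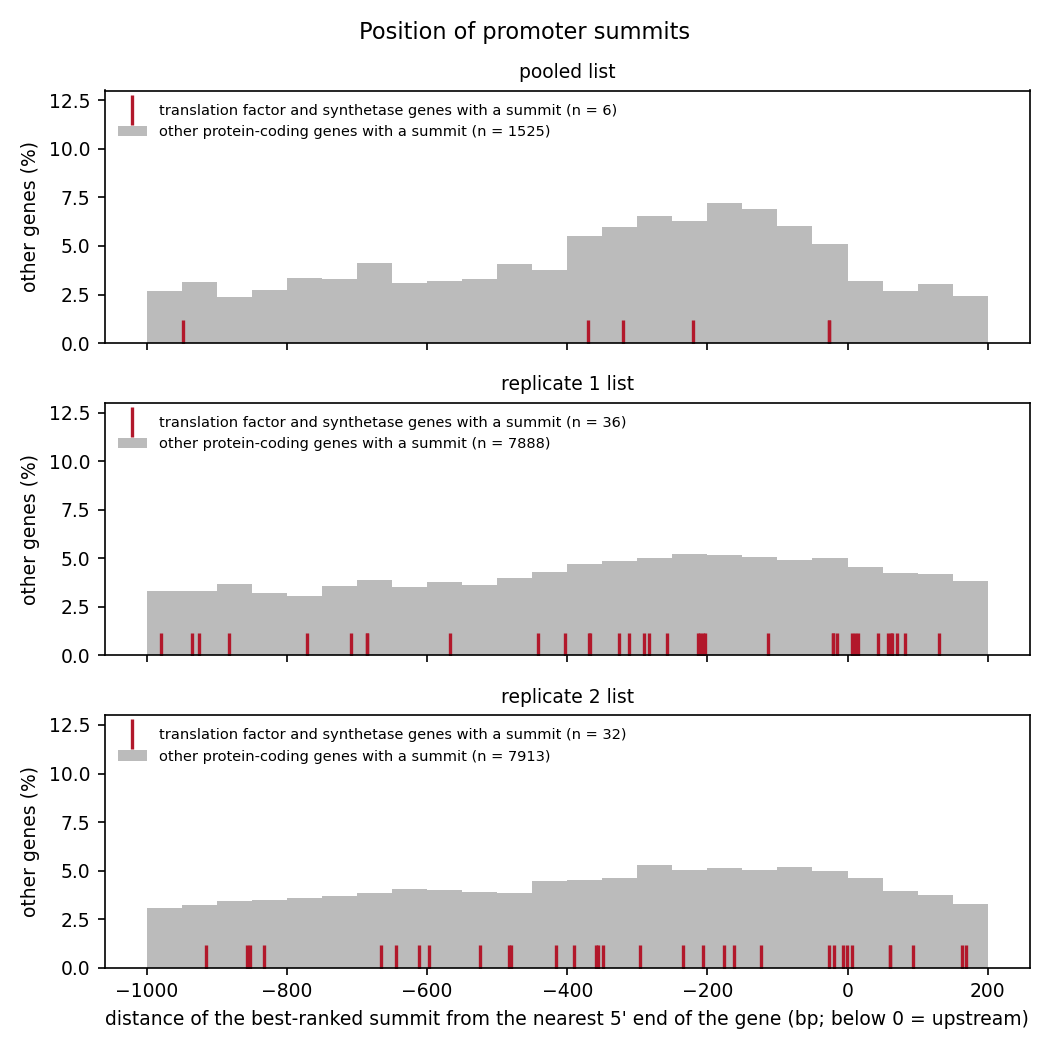
Distance in bp from the nearest 5' end of a gene to its best-ranked promoter summit, for translation factor and synthetase genes (red marks) over the distribution for other protein-coding genes (grey, percent per 50 bp), in each of 3 lists. The 6 pooled marks lie from 948 to 27 bp upstream, with eef-1G and ears-2 on top of each other at 27 bp.

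The summits of the 6 genes in the pooled list had a median position 270.5 bp upstream of the 5' end, against 303 bp upstream over all protein-coding genes with a summit. Of these summits 5 were intergenic. By chromosome, the 69 genes were spread over I (21), II (16), III (11), IV (10), V (8) and X (3), and 2, 1, 0, 1, 1 and 1 of them had a pooled promoter summit, where the shares of all protein-coding genes were 9.69%, 6.32%, 9.73%, 8.75%, 5.55% and 7.80%. With so few genes per chromosome these counts set no chromosome apart. The X chromosome held 4.35% of these genes against 13.7% of the other protein-coding genes.

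The AP-1 letters, TGACTCA or TGAGTCA on either strand, were absent within 100 bp to each side of all 6 pooled summits, and also within 200 bp. Within 100 bp they were present at 4.47% of all 1408 pooled promoter summits, and 6 summits are too few to set against that share. In the promoter window of the outermost 5' end, 5 of 69 genes had the letters (7.25%) beside 11.7% of the other protein-coding genes. These were eif-3.E, nars-1, eif-2Balpha, rars-2 and yars-2, none of which had a pooled promoter summit. Only 7.67% of all protein-coding genes had one, so its absence at 5 genes is no result about them. The share among all genes with the letters was not computed. The sites of 3 of these genes are shown with the letters in capitals, on the strand of the gene, as examples of the consensus in a promoter without a pooled summit, which holds for all 5.
eif-2Balpha, III:9542864-9542890, plus strand: gtaaactgacTGACTCAaaaaatatgt
rars-2, II:6125021-6125047, plus strand: tctgtggtggTGACTCAgaactcattg
yars-2, IV:4712423-4712449, minus strand: tgcacctcggTGAGTCAattgctagtg
The centre of the letters was 242 bp upstream of the 5' end of eif-2Balpha, 525 bp upstream of that of rars-2 and 188 bp downstream of that of yars-2. The yars-2 letters thus lie inside the gene. The same-strand gene C29H12.2 ends 120 bp upstream of rars-2. The rars-2 letters lie farther upstream than that end, not between the genes, and whether they are inside C29H12.2 was not looked up. The promoters of eif-2Balpha, rars-2 and yars-2 held no summit in either replicate list, whereas nars-1 had its replicate 2 summit at rank 2125 and eif-3.E had summits at rank 25960 in replicate 1 and 7459 in replicate 2.

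Other genes of translation and its control were looked up from a list of 39 symbols, of which 29 are protein-coding genes of the annotation outside the symbol rule. The list was put together by hand, by no fixed rule and with earlier results of these data known, so its shares say nothing of such genes as a group. In the IDR set 3 of 29 had a promoter summit (10.3%, 95% interval 2.19 to 27.4, beside 0.806% of all genes), and in the pooled list 10 of 29 (34.5%, 95% interval 17.9 to 54.3, beside 7.67%). No test was made. The IDR genes were drr-2, a relative of mammalian eIF4H (rank 21, signal 75.9), iff-2, which encodes eIF5A (rank 105, signal 40.4), and larp-1, for a La-related RNA-binding protein (rank 138, signal 37.0). Replicate ranks of these genes are those of the best promoter summit in that list, and were not matched to the pooled region. For drr-2 the rank was 15 in replicate 1 and 66 in replicate 2. For iff-2 the ranks were 101 and 234, so both genes had a promoter summit among the highest 248 regions of each replicate. For larp-1 the rank was 168 in replicate 1 and 1455 in replicate 2. Next came iffb-1, for eIF5B, at pooled rank 282 (signal 29.9) and ifet-1, for an eIF4E-binding repressor, at 423 (signal 27.1). Both stood high in replicate 2, at ranks 145 and 328, and low in replicate 1, at 13690 and 24731. The eIF2alpha kinase gene pek-1 ranked 878 in the pooled list, 983 in replicate 1 and 858 in replicate 2, whereas the kinase gene gcn-2 and atf-4, a bZIP factor gene that acts downstream of eIF2alpha phosphorylation, had no pooled promoter summit. The eIF4A gene inf-1 had no pooled summit either, and ranked 27293 in replicate 2.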

How the data were processed

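ChIP-seq peak lists of 2 biological replicates of 1 group were used, on build ce11. Per the deposited README of each sample, the authors called regions on each replicate's alignment with a control alignment and on both replicates together, and derived the IDR-thresholded set from the results. Which aligner, peak caller and IDR threshold they used is not given in the sources used here. The signal and the −log10 q-value of a region are the authors' deposited values. Depth is unknown. Lists on ce10 were not used, since annotation and sequence are ce11 (Ensembl release 115, RefSeq WBcel235).

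Regions were ranked by signal, and genes were assigned summits from 1000 bp upstream to 200 bp downstream of any annotated 5' end. Background shares are over all nuclear protein-coding genes. Exact Clopper-Pearson 95% intervals cover counting error only. No test was run. The members and lists were chosen with earlier results of these data known. Named genes were every member with an IDR summit, the 20 with the best pooled rank (6 had one), the 4 best in each replicate and the best of each role, and other genes were chosen after their values were seen. Ribosomal protein genes had symbols in rpl-, rps- or rla-, and proteasome genes in pas-, pbs-, rpn- or rpt-. Alternatives were other promoter windows, a single or the nearest 5' end, shorter lists, each replicate alone, nuclear chromosomes only and other motif windows. Checked on simulated data, the assignment recovered 200 of 200 summits planted inside promoter windows. This checks the code only, and not whether a real summit belongs to the gene. Software was Python 3.11.15 with scipy 1.17.1, pandas 2.3.3, numpy 2.4.6 and matplotlib 3.10.9.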

Additional observations from a re-analysis of the deposited data

How the results depend on the processing

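Of 62 recomputed values, 50 stayed the same or within 1.5 times the main value and 12 moved by more, and no value carries a test. Only the size of each value was compared, so a change of its order against all genes was not scored. The number of genes with an IDR promoter summit, 1 in the main analysis, was 2 with the window of 2000 bp upstream to 500 bp downstream (iars-2 joined, with all genes at 1.14%), 0 in the higher-signal part of the IDR set (all genes at 0.376%) and 0 to 1 with a replicate left out, 0 being replicate 2 alone (all genes at 0.646%) and 1 replicate 1 alone (0.656%). The pooled count of 6 was 12 with the wide window, where all genes were at 11.6%, and 3 in the upper part of the list, where all genes were at 4.42%. From replicate 1 alone the count was 4 (5.80%), below the 7.04% of all genes, and from replicate 2 alone it was 6, beside 6.75%. In replicate 1 the count of 4 was 10 with the wide window (all genes at 11.3%), 1 in the highest 1000 regions (2.4%) and 36 in the whole list (39.7%). With 500 bp upstream to 100 bp downstream the count stayed at 4 (5.80%). All genes were then at 4.57%, below that share, against 7.04% in the main window. In replicate 2 the count of 6 was 3 in the highest 1000 regions (2.22%), 32 in the whole list (39.8%) and 6 with nuclear chromosomes only (6.79%). The median best pooled rank of 1335.5 (all genes 1511) was 710 with the window of 500 bp upstream to 100 bp downstream (all genes 1392). With the wide window it was 2044.5 (all genes 1579), so there it was worse than that of all genes. Fewer regions and shorter windows hold fewer genes by construction. The best pooled rank of each of the 6 named genes did not change where it could be had, and eif-3.J had none in the narrow window. These ranks were read from the same list each time and are counted among the 50, so their constancy says little about stability. No paired analysis was possible because the samples form 1 group. Depth is unknown, and the small number of genes limits every share.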

Other observations

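A region of the IDR set lay just beyond the promoter window of a further synthetase gene, iars-2, for isoleucyl-tRNA synthetase. It was 1143 bp upstream of the 5' end and ranked 207 (signal 32.8), and in replicate 1 a summit 1105 bp upstream ranked 127 (signal 21.3). Replicate 2 placed a summit, 122 bp from that of the IDR region, at rank 4265 (signal 10.2). The same-strand gene C25A1.16 ends 488 bp upstream of iars-2. The region lies farther upstream than that end, not between the genes, and whether it is inside C25A1.16 was not looked up. Which gene the region belongs to was not tested. With the wide window eif-3.D, eef-2, ears-1, eif-2gamma and nars-1 also gained a pooled summit, at ranks 1790 to 3161. These genes were chosen after their values were seen.

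C. elegans transcribes some neighbouring genes together in operons, from a promoter upstream of the first gene. The annotation used gives no operons, but 18 of 69 translation factor and synthetase genes (26.1%) had a protein-coding gene of the same strand ending within 500 bp upstream of the 5' end, against 18.1% of the other protein-coding genes. Counting the promoter of the first gene of such a run as well, an alternative added after seeing the data, 8 of 69 had a pooled summit (11.6%) beside 9.29% of all genes. The IDR count stayed at 1 (1.45%), beside 1.08% of all genes. The added genes were gars-1, whose run starts at prp-19 (pooled rank 2289, replicate 1 rank 620), and rars-2, behind C29H12.2 (pooled rank 2767). Pooled summits inside gene bodies, outside every main promoter window, were found in eef-1A.2, eif-2Bdelta (rank 1059, in an intron) and nars-1 (rank 3161, in a coding exon). That is 4.35% of 69 genes against 5.41% of the others. The eef-1A.2 summit is just past the window, and that of nars-1, 410 bp downstream, is the one gained with the wide window.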
